A study of Mus musculus with 6 samples.

Results

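Transforming growth factor beta (TGF-beta) signalling was described here through 10 genes, chosen by name: the ligands Tgfb1, Tgfb2 and Tgfb3, the latent TGF-beta binding protein Ltbp1, the integrin subunits Itgav and Itgb8, the receptors Tgfbr1, Tgfbr2 and Tgfbr3, and the signal transducer Smad3. These genes were chosen with earlier results of these data known. They are 10 of the 32285 genes counted in 6 single-nucleus RNA libraries of mouse subcutaneous white adipose tissue, and each symbol occurred once. The study asked how GPSM1, a G-protein signalling modulator, acts in the regulatory T (Treg) cells of adipose tissue. Its title names CD73+CD103+ Treg cells, whose surface proteins are encoded by Nt5e and Itgae. The control group is 3 libraries of GPSM1f/f mice, whose floxed Gpsm1 is intact without Cre. The knockout group is 3 libraries of GPSM1ΔTreg mice, a genotype whose name stands for loss of Gpsm1 from Treg cells. All 6 samples are labelled with 12 weeks of high-fat diet, while the protocol has high-fat feeding start at 7 weeks of age and last 5 to 12 weeks, with 3 mice per genotype. Neither the Cre line nor the deleted exons is given in the sources used here, so 3′ counts of Gpsm1 do not check the genotype.

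TGF-beta is secreted as a latent complex: the mature dimer stays wrapped in its own propeptide, which is tied to a binding protein such as LTBP1 in the matrix. The integrin αvβ8, made of the Itgav and Itgb8 products, binds an Arg-Gly-Asp (RGD) motif in the propeptide and frees the growth factor. The active ligand brings together the type II receptor TGFBR2 and the type I receptor TGFBR1, which phosphorylates SMAD2 and SMAD3, while TGFBR3 (betaglycan) is a co-receptor that presents ligand, TGF-beta 2 above all. In adipose tissue the pathway is known for its part in fibrosis and in restraining adipogenesis, and in T cells for the induction and upkeep of Treg cells, which can themselves activate TGF-beta through αvβ8.

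The coding stretch around the RGD motif shows which of the ligands carry the site that αvβ8 binds, and is printed for that reason. Capitals mark the 9 bases of the 3 RGD codons in Tgfb1 and Tgfb3 and, in Tgfb2, the 9 bases that align with them. The sequences are from GENCODE vM21 transcripts on mm10, written 5′ to 3′ on the coding strand, with 36 bases on each side. The stretch spans 2 exons in each gene (exons 4 and 5 of Tgfb1, 5 and 6 of Tgfb2, and 4 and 5 of Tgfb3), so the genomic intervals hold an intron. They are chr7:25696977-25697186 on the plus strand for Tgfb1, chr1:186630717-186632467 on the minus strand for Tgfb2 and chr12:86062129-86063830 on the minus strand for Tgfb3.
Tgfb1: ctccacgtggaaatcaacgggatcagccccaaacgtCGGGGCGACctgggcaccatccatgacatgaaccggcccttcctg
Tgfb2: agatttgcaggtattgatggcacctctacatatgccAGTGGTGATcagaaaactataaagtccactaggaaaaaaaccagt
Tgfb3: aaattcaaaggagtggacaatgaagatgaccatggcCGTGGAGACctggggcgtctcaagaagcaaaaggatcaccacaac
The translated Tgfb1 and Tgfb3 sequences each held 1 RGD motif, whereas the translated Tgfb2 sequence held 0. Over aligned positions, the translated Tgfb2 and Tgfb3 precursors were 49.5% and 50.5% identical to that of Tgfb1.

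On mm10 the genes lie at chr7:25687002-25705077 (Tgfb1), chr1:186622792-186705989 (Tgfb2), chr12:86056745-86079041 (Tgfb3), chr17:75005568-75392512 (Ltbp1), chr2:83724397-83806916 (Itgav), chr12:119158022-119238802 (Itgb8), chr4:47353222-47414931 (Tgfbr1), chr9:116084293-116175360 (Tgfbr2), chr5:107106570-107289629 (Tgfbr3) and chr9:63646767-63757994 (Smad3). All are annotated as protein-coding.

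The kept nuclei numbered 9114 to 9730 per library, with 33193772 to 48319668 UMIs (unique molecular identifiers, 1 per captured RNA molecule), with more UMIs in each control library (at least 40787592) than in any knockout library (at most 35496229). Pairs of libraries shared 24 to 44 barcodes, at most 0.409% of the smaller library. Clustering gave 38 clusters, of which 31 were named by marker genes into 13 classes, and 10 classes had at least 20 nuclei in every library. Every name rests on markers alone, hence "like". ASPC-like stands for adipose stem and progenitor cells. NK-cell-like names a class that mixes NK-cell and T-cell markers, with the T-cell sum above the NK sum in every knockout library. The libraries differed in their immune content: B-cell-like nuclei made up 2.03, 1.03 and 5.04% of control libraries 1, 2 and 3 and 38.4, 12.3 and 19.1% of knockout libraries 1, 2 and 3. T-cell-like nuclei made up 0.823 to 1.45% of the controls and 2.88 to 7.92% of the knockouts. Flox control 3 stood apart, with 30.3% of its nuclei in unnamed clusters, mainly 1 cluster of adipocyte genes at low UMI counts. Gpsm1 itself, the targeted gene, stood at 27.2, 31.3 and 24.1 counts per 1000000 UMIs (CPM) in the whole control tissue and at 38.3, 38.3 and 33.7 in the knockout. In T-cell-like nuclei it was at 31.1, 56.4 and 19.2 CPM in the controls, against 21.3, 15.1 and 17.5 in the knockouts, from 5 to 28 UMIs per library, and these ranges overlapped.

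Levels below are CPM: the gene's UMIs per 1000000 UMIs of the class, summed within 1 library, so that a library is 1 replicate. Because these are nuclear 3′ counts, levels are compared between classes and libraries for 1 gene, not between genes. The mean ± SD over all 6 libraries describes a class. Orders of classes run over the 10 classes with enough nuclei in every library, and neighbours in an order are called overlapping when their library ranges overlap.

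**Figure D1:**
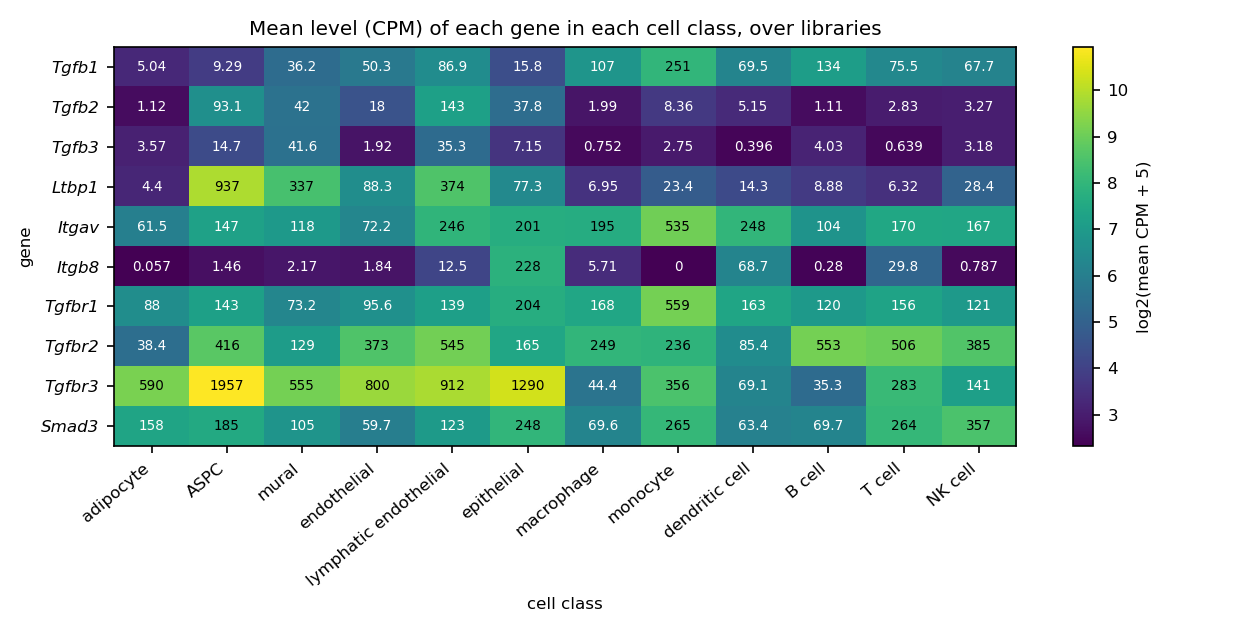
Mean level in CPM of each gene (rows, ordered from ligands to receptors and Smad3) in each cell class (columns), over the libraries with at least 20 nuclei of the class. Colour is log2(mean CPM + 5) and the printed figures are CPM. Tgfbr3 and Ltbp1 were highest in ASPC-like nuclei, Tgfb1, Tgfbr1 and Itgav in monocyte-like nuclei, and Itgb8 in epithelial-like nuclei.

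The 3 ligands had different sources. Tgfb1, the ligand most tied to immune regulation, was a gene of immune nuclei: it was highest in monocyte-like nuclei (251 ± 61.7 CPM; SD, n = 6), followed by B-cell-like (134 ± 18.7) and macrophage-like nuclei (107 ± 10.5), and each of these overlapped its neighbour. T-cell-like nuclei followed at 75.5 ± 8.73 CPM, below every macrophage-like library. The lowest classes were ASPC-like (9.29 ± 0.871 CPM) and adipocyte-like nuclei (5.04 ± 1.10 CPM), which did not overlap each other. Tgfb2 was a gene of the stroma, with 93.1 ± 14.0 CPM in ASPC-like nuclei and no overlap with the next class, mural-like nuclei (42.0 ± 25.5 CPM). Lymphatic-endothelial-like nuclei, too few in flox control 2 to be tested, held Tgfb2 at a pooled 126 CPM. Tgfb3 was low throughout, with its highest mean in mural-like nuclei, the pericytes and smooth muscle cells of vessels (41.6 ± 26.4 CPM), then ASPC-like nuclei (14.7 ± 1.59 CPM). Within the ASPC-like class Tgfb2 differed between clusters, at a pooled 118 CPM in the cluster led by Sema3e, Rorb and Adamts16 and 69.4 CPM in that led by Pde11a, Col3a1 and Bmper.

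The cells that held most of each ligand's UMIs followed from these levels and from the numbers of nuclei. ASPC-like nuclei held 75.0 ± 11.2% of the Tgfb2 UMIs of a control library and 82.0 ± 2.27% of those of a knockout library (SD, n = 3 each). For Tgfb1, macrophage-like nuclei held 53.9 ± 12.3% in the controls, against 27.1 ± 11.8% in the knockouts, and B-cell-like nuclei held 4.85 ± 4.89% and 33.7 ± 14.0%. The Tgfb1 level within B-cell-like nuclei was 126, 133 and 145 CPM in the controls, against 136, 161 and 105 in the knockouts, and within macrophage-like nuclei 107, 103 and 123 against 114, 103 and 92.9. In both classes the groups overlapped.

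**Figure D2:**
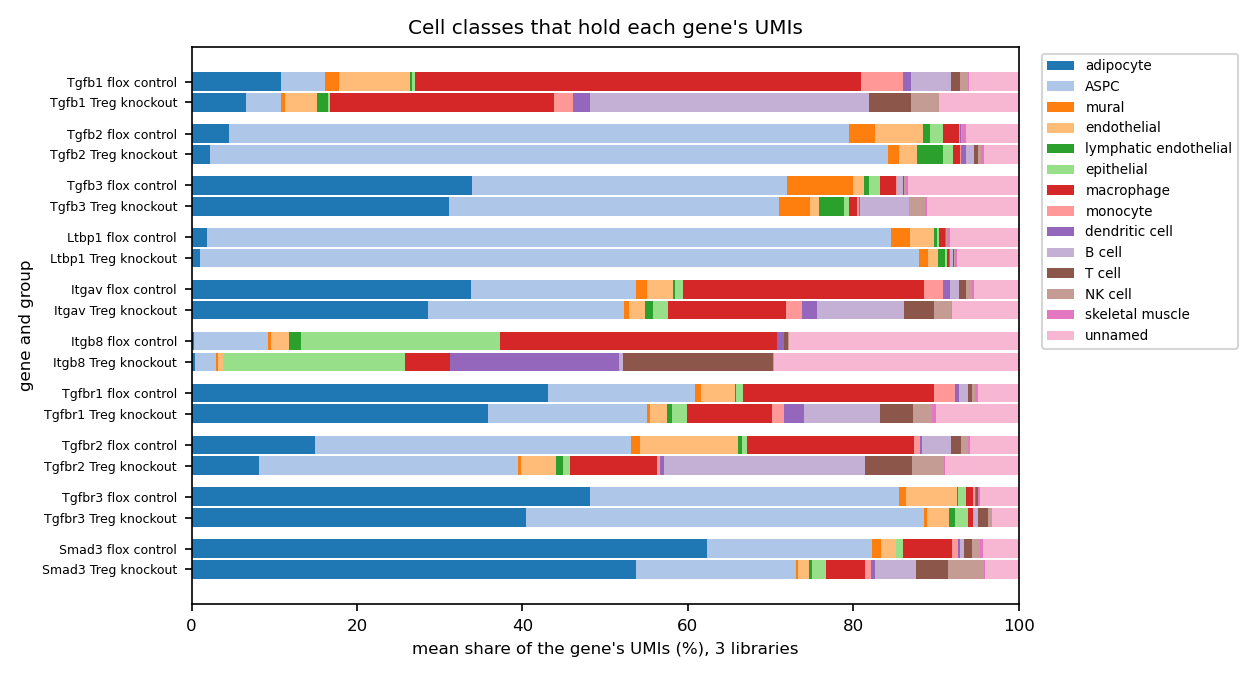
Mean share of each gene's UMIs (%) that lay in each cell class, over 3 flox control and 3 Treg knockout libraries, as stacked bars that sum to 100. B-cell-like nuclei held a mean of 4.85% of Tgfb1 in the controls, against 33.7% in the knockouts, and macrophage-like nuclei 33.5% and 5.53% of Itgb8.

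No ligand passed the edgeR test between genotypes in any class. Tgfb1 in monocyte-like nuclei had the single unadjusted p under 0.05, with a log2 fold change of -0.48 (edgeR adjusted p = 0.952), and DESeq2 called no ligand. The counts of all 10 genes are set here against the background of each comparison, the share of all tested genes with an edgeR adjusted p (Benjamini-Hochberg) under 0.05. That share was 0.385% in ASPC-like, 2.44% in adipocyte-like, 0.559% in macrophage-like, 0.0308% in monocyte-like, 5.15% in dendritic-cell-like, 3.11% in T-cell-like, 8.04% in NK-cell-like, 0.14% in B-cell-like and 0.0854% in endothelial-like nuclei. In mural-like nuclei it was 0%, with 294 genes at an unadjusted p under 0.05 and 3 genes called by DESeq2. The whole tissue, summed over all nuclei, had 0.0415%. Of 100 pairs of a member and a class, 73 had counts enough for the test and 27 had not. The test called 3 of the 73: Itgb8 in T-cell-like and in dendritic-cell-like nuclei, and Itgav in NK-cell-like nuclei. Itgb8 passed the count filter in those classes through the knockout libraries alone, so a fall could not have been called. Of the 73, 17 had an unadjusted p under 0.05 with edgeR, those 3 among them, and DESeq2 called 4. Over all genes and the same 10 classes, edgeR called 1.54% of 86124 pairs and had 13.7% at an unadjusted p under 0.05, and DESeq2 called 3.04%.

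Ltbp1, which stores latent TGF-beta in the matrix, was highest in ASPC-like nuclei at 938 ± 54.0 CPM (n = 6), with no overlap with mural-like (337 ± 128 CPM) or endothelial-like nuclei (88.4 ± 12.1 CPM). ASPC-like nuclei held 82.8 ± 9.29% of its UMIs in the controls, against 86.9 ± 2.66% in the knockouts. The Sema3e, Rorb and Adamts16 cluster reached a pooled 1227 CPM against 684 CPM in the Pde11a, Col3a1 and Bmper cluster, the same order as for Tgfb2. An unnamed cluster led by the milk-protein genes Ltf and Csn3 was higher still, at 1510 CPM. In ASPC-like nuclei Ltbp1 was 952, 885 and 898 CPM in control libraries 1, 2 and 3, against 974, 896 and 1020 CPM in the knockouts, and the groups overlapped. In adipocyte-like nuclei it was at 4.4 ± 0.686 CPM.

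Itgb8, the β8 subunit that pairs with αv alone, had the largest fold changes between genotypes among the 73 tested pairs. In T-cell-like nuclei its level was 5.18, 9.39 and 0 CPM in control libraries 1, 2 and 3, from 1, 1 and 0 UMIs. In the knockout libraries it was 69.9, 32.7 and 61.7 CPM, from 92, 13 and 53 UMIs. Every knockout library stood above every control library, as for 8.83% of all genes tested there. The log2 fold change was 3.95 with a standard error of 0.68 (edgeR adjusted p = 0.00178). The gene passed the low-count filter through the knockout libraries alone, so only a rise could be called. The p-value does not allow for this selection. With 2 control UMIs in all, the fold is loosely bounded: the pooled ratio was 17.2, with a 95% counting interval of 4.69 to 143. When knockout library 1 or 3, or the Foxp3-positive nuclei, were left out, the gene fell below the low-count filter. Held in the fit, with the filter set aside for the members alone, it had edgeR adjusted p-values of 0.0159, 0.00315 and 0.00419. These fits reuse the same counts and are no separate support.

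**Figure D3:**
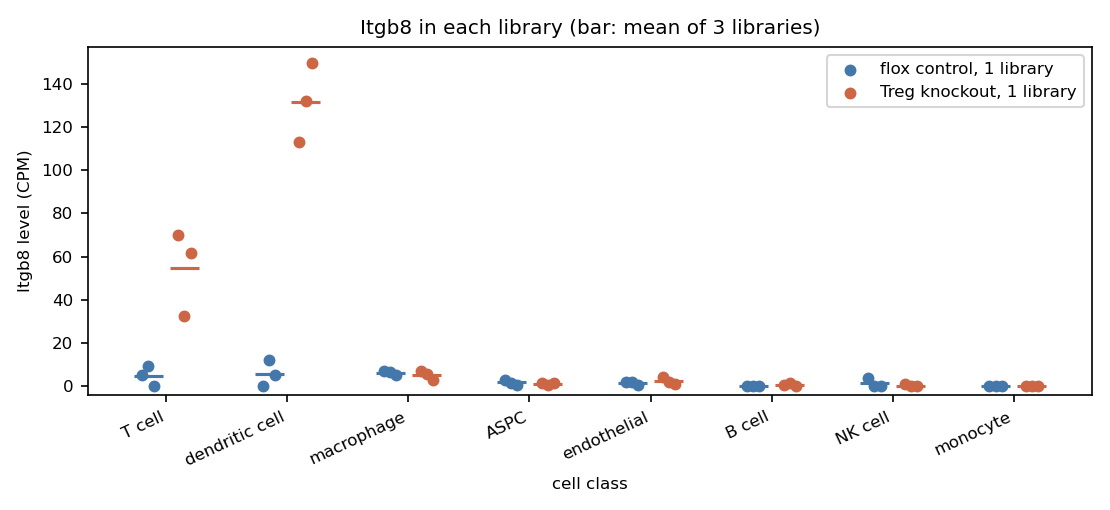
Itgb8 level (CPM) in each library, by cell class, with 3 flox control (blue) and 3 Treg knockout (orange) libraries per class and a bar at each mean. In T-cell-like nuclei the knockout libraries sit between 32.7 and 69.9 CPM and the controls at or under 9.39; in dendritic-cell-like nuclei they sit between 113 and 150 CPM against at most 12.0.

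All 160 Itgb8 UMIs of the T-cell-like class came from the cluster led by Cd5, Lef1 and Ctla4. The other T-cell-like cluster, led by Cd163l1 and Il23r, held 0 Itgb8 UMIs in every library. It made up 35.2, 25.3 and 28.9% of the T-cell-like nuclei of control libraries 1, 2 and 3. In the knockouts it made up 10.4, 14.0 and 12.0%. In the first cluster Itgb8 stood at 8.45, 13.3 and 0 CPM in the controls, against 79.2, 38.6 and 71.1 CPM in the knockouts, a pooled ratio of 12.99 (95% counting interval 3.54 to 108). The share of T-cell-like nuclei with an Itgb8 UMI was 46 of 771, 9 of 271 and 20 of 468 in knockout libraries 1, 2 and 3, which is 5.97, 3.32 and 4.27%. It was 1 of 128, 1 of 75 and 0 of 135 in the controls. With the limit set at 3 counts of the total, the last of these allows a share of up to 2.22% (exact binomial upper bound 2.70%). As a measure of free RNA, 4 of 7430 B-cell-like nuclei (0.0538%, exact binomial 95% interval 0.0147 to 0.138%; median 1375 UMIs) and 0 of 538 monocyte-like nuclei (which allows up to 0.558% by the same limit; exact upper bound 0.683%; median 1666 UMIs) held an Itgb8 UMI, against 77 of 1848 T-cell-like nuclei (4.17%, 3.30 to 5.18%; median 1506 UMIs).

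Itgb8-positive T-cell-like nuclei of the knockouts carried some Treg-associated transcripts. Ikzf2, which encodes the Treg-associated factor Helios, was detected in 73 of 75 of them (97.3%; exact 95% interval 90.7 to 99.7%) and in 433 of 1435 Itgb8-negative nuclei (30.2%; 27.8 to 32.6%). By library this was 44 of 46, 9 of 9 and 20 of 20 against 215 of 725, 74 of 262 and 144 of 448. Ctla4, an inhibitory receptor of Treg cells, was detected in 50.7% (38.9 to 62.4%) against 11.0% (9.44 to 12.7%). Nt5e, which encodes CD73, was detected in 53.3% (41.5 to 65.0%) against 14.6% (12.8 to 16.5%). Itgae, which encodes CD103, was detected in 22.7% (13.8 to 33.8%) against 12.8% (11.1 to 14.7%), intervals that overlap. Foxp3, the defining factor of Treg cells, was detected in 6 of 75 and 47 of 1435 nuclei (8.0%, 2.99 to 16.6%, against 3.28%, 2.42 to 4.33%), intervals that overlap. By library Foxp3 was in 4 of 46, 2 of 9 and 0 of 20 Itgb8-positive nuclei and in 30 of 725, 5 of 262 and 12 of 448 negative ones, so that knockout library 3 went the other way. The rest of the Treg marker list was Il2ra, Tnfrsf18 and Il1rl1. Il2ra was in 14 of 46, 5 of 9 and 6 of 20, against 126 of 725, 34 of 262 and 81 of 448. Tnfrsf18 was in 10 of 46, 4 of 9 and 3 of 20, against 45 of 725, 17 of 262 and 40 of 448. Il1rl1 was in 2 of 46, 0 of 9 and 1 of 20, against 15 of 725, 10 of 262 and 10 of 448. For Il1rl1, knockout library 2 went the other way. The positive nuclei were deeper, with a median of 1930 UMIs against 1497. After each nucleus was thinned to 1000 UMIs, with 264 shallower knockout nuclei left out, Ikzf2 was in 95.6% of 45 against 27.98% of 1201 nuclei and Ctla4 in 37.8% against 8.74%. Itgae was then in 11.1% against 10.7%. These shares pool nuclei of 3 libraries and their intervals cover counting error only.

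The T-cell-like nuclei were then split by Foxp3 instead, pooled over the 6 libraries of both genotypes. Itgb8 was detected in 7 of 65 Foxp3-positive (10.8%, 4.44 to 20.9%) and 70 of 1783 Foxp3-negative T-cell-like nuclei (3.93%, 3.07 to 4.93%). After thinning, 1 of 36 and 44 of 1475 remained, 2.78% and 2.98%, so that no difference was detectable at this depth. Tgfbr1 was detected in 38.5% (26.6 to 51.4%) of Foxp3-positive and 18.2% (16.5 to 20.1%) of Foxp3-negative nuclei, and in 27.8% (14.2 to 45.2%) against 12.8% (11.2 to 14.6%) after thinning. Tgfbr3 went the other way, at 13.8% (6.53 to 24.7%) against 32.0% (29.9 to 34.2%), and 11.1% (3.11 to 26.1%) against 24.0% (21.8 to 26.3%) after thinning. Lrrc32, which encodes the protein GARP that holds latent TGF-beta on the Treg surface, was detected in 20.0% (11.1 to 31.8%) against 1.18% (0.730 to 1.79%) before thinning. All these shares count nuclei, so their intervals cover counting error only, not the spread between libraries or genotypes.

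In dendritic-cell-like nuclei Itgb8 was 0, 12.0 and 5.21 CPM in control libraries 1, 2 and 3, against 113, 132 and 150 CPM in the knockouts. This was again a rise without overlap, as in 13.4% of all genes tested there. The log2 fold change was 4.80 (SE 0.58; edgeR adjusted p = 0.00556), and the pooled ratio was 28.9 with a 95% counting interval of 7.88 to 240. Here too Itgb8 passed the low-count filter through the knockout libraries alone, so only a rise could be called. The class was made up differently in the groups. All 174 Itgb8 UMIs came from the cluster led by Apol7c, Dscaml1 and Cacnb3. It held 1, 5 and 12 nuclei of the controls (1.79, 15.2 and 20.7% of their dendritic-cell-like nuclei) and 121, 31 and 72 of the knockouts (52.8, 45.6 and 61.0%). Most control nuclei were in the cluster led by Clec9a, a marker of cross-presenting dendritic cells, which held 0 Itgb8 UMIs in every library. Within the Apol7c cluster Itgb8 was at 201, 278 and 282 CPM in the knockouts and, from 2 UMIs in 18 nuclei, at a pooled 31.0 CPM in the controls, a ratio of 7.55 (95% counting interval 2.06 to 62.8). Its controls were too few for the test over libraries. Ccr7, the chemokine receptor of migrating dendritic cells, stood at 44.4, 83.8 and 88.5 CPM in the class in the controls, against 166, 162 and 195 CPM in the knockouts.

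Some markers of lymphoid tissue differed between the libraries in which Itgb8 differed. Beside the B-cell-like shares above, all 8 markers of the B-cell list had UMIs in T-cell-like nuclei. Their summed level was 178 to 379 CPM in the controls, against 354 to 630 CPM in the knockouts, ranges that overlap. The list was not particular to B cells here, with sums of 6649 to 7682 CPM in ASPC-like and 5594 to 6526 CPM in adipocyte-like nuclei of the controls. In dendritic-cell-like nuclei all 8 had UMIs as well, at 105 to 2249 CPM and 204 to 1931 CPM, ranges that overlap. Ccr7, given above for dendritic-cell-like nuclei, overlapped in T-cell-like nuclei. It was 51.8, 93.9 and 72.8 CPM there in the controls, against 79.0, 57.8 and 90.8 CPM in the knockouts. An unnamed cluster with markers of lymphoid stromal cells had 0, 0 and 33 nuclei in the controls, against 144, 18 and 76 in the knockouts. The labels do not record whether lymph node was dissected with the fat, so a difference between genotypes in Itgb8 and one in the tissue sampled cannot be told apart.

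Outside T-cell-like and dendritic-cell-like nuclei, Itgb8 was found in few places. Macrophage-like nuclei held 6.87, 6.68 and 5.15 CPM in the controls, against 7.21, 5.46 and 2.91 CPM in the knockouts, with overlap (log2 fold change -0.30, SE 0.32; edgeR adjusted p = 0.767). Among macrophage-like clusters it was highest in that led by Lyz1, Fcrls and Aldh1a2, at a pooled 22.6 CPM in the controls, against 19.6 CPM in the knockouts. Epithelial-like nuclei led by Frmpd4, Grik3 and Cdh3 held a pooled 351 CPM, and 33.5% (29.6 to 37.6%) of all epithelial-like nuclei had an Itgb8 UMI. The unnamed Ltf and Csn3 cluster held 177 CPM. Adipocyte-like nuclei held 6 positive nuclei of 13133 at a median of 7698 UMIs. In the summed tissue Itgb8 was 5.95, 1.64 and 2.01 CPM in the controls, against 11.6, 8.10 and 5.77 CPM in the knockouts, a log2 fold change of 1.32 that did not pass (SE 0.54; edgeR adjusted p = 0.17). In such a sum, more nuclei of a type and more RNA per nucleus cannot be told apart.

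Itgav, the αv subunit shared by several integrins, was present in every class. It was highest in monocyte-like nuclei (535 ± 41.2 CPM, n = 6), without overlap with the next class, dendritic-cell-like nuclei (248 ± 135 CPM), and lowest in adipocyte-like nuclei (61.5 ± 5.64 CPM). In NK-cell-like nuclei, the class led by Gzma, Klrb1c and Samd3, it was 221, 246 and 223 CPM in control libraries 1, 2 and 3 against 95.9, 121 and 96.2 CPM in the knockouts. This was a fall without overlap, as in 11.3% of all genes tested there. The log2 fold change was -1.19 (SE 0.20; edgeR adjusted p = 0.00117). With doublets kept, the call was lost (log2 fold change -0.89, edgeR adjusted p = 0.0648). NK-cell and T-cell markers moved with it in this class, which holds both: the 7 NK markers summed to 3980 to 9354 CPM in the controls, against 1362 to 3308 CPM in the knockouts, and the 9 T-cell markers to 5043 to 5558 and 7621 to 9054 CPM. Of these 9, Cd3e was 132, 161 and 66.8 CPM in the controls, against 315, 209 and 312 CPM in the knockouts. Cd8a was 65.8, 56.8 and 59.4 CPM, against 316, 235 and 280 CPM. The T-cell sum was above the NK sum in every knockout library and in control library 3, so the name describes the knockout nuclei poorly. At a finer clustering the NK class held fewer T-cell markers in each library, and its NK markers summed to 5503 to 10910 CPM in the controls and 2837 to 5534 CPM in the knockouts, ranges that now overlapped. Its T-cell markers did not overlap, at 3916 to 4488 and 6120 to 7290 CPM. Itgav was then at 241, 300 and 299 CPM in the controls, against 106, 137 and 133 CPM in the knockouts. The part of this shift in the Itgav result was not tested.

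In T-cell-like nuclei Itgav was 166, 235 and 207 CPM in the controls, against 151, 131 and 132 CPM in the knockouts. It was lower there without overlap, as were 9.36% of all genes tested, but the difference did not pass (log2 fold change -0.50, SE 0.19; edgeR adjusted p = 0.193). The make-up of the T-cell-like class differed between the groups, as given above, and its part in this difference was not tested. In dendritic-cell-like nuclei Itgav was 327, 455 and 219 CPM against 139, 270 and 78.3 CPM (log2 fold change -1.04, SE 0.44; edgeR adjusted p = 0.199). The Itgb8-bearing Apol7c cluster had less Itgav than the Clec9a cluster in each knockout library, at 76.1, 152 and 31.4 CPM against 328, 378 and 179 CPM. Of the Itgb8-positive T-cell-like nuclei of the knockouts, 27 of 75 (36%, 25.2 to 47.9%) also had an Itgav UMI, against 230 of 1435 Itgb8-negative nuclei (16.0%, 14.2 to 18.0%). These shares are without thinning, and the Itgb8-positive nuclei were deeper, as given above. Their intervals cover counting error only.

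**Figure D4:**
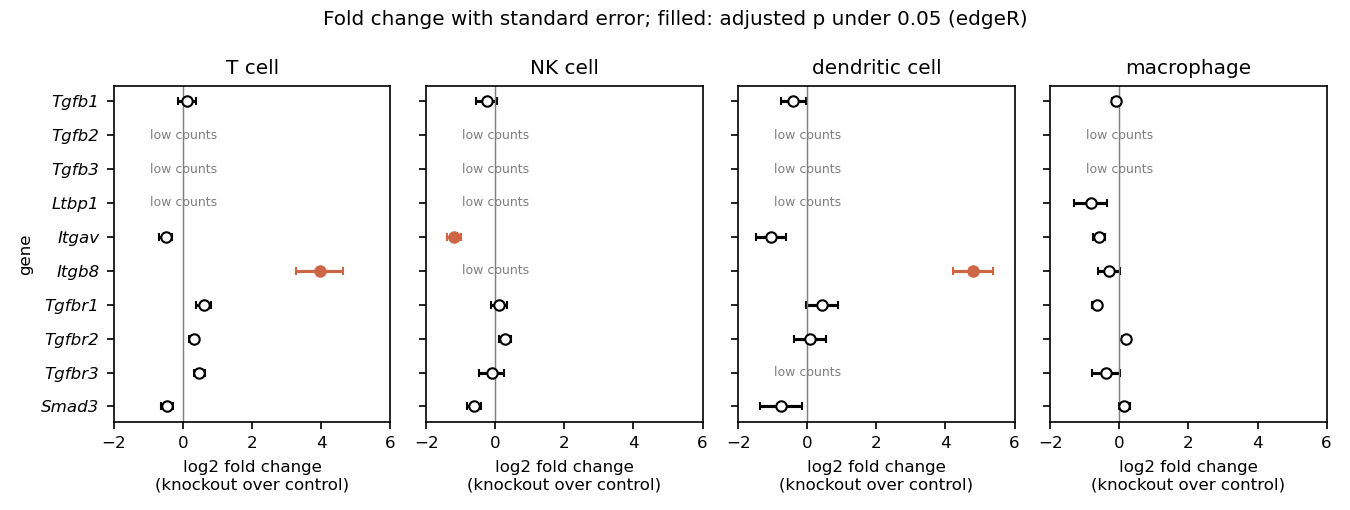
Log2 fold change (knockout over control) with its standard error for each gene in 4 classes. Filled points passed an edgeR adjusted p of 0.05: Itgb8 in T-cell-like (3.95) and dendritic-cell-like nuclei (4.80) and Itgav in NK-cell-like nuclei (-1.19). "Low counts" marks genes under the filter.

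In macrophage-like nuclei Itgav and the type I receptor Tgfbr1 were both lower in every knockout library, as were 11% of all genes tested, without passing the test. Itgav was 239, 231 and 237 CPM in the controls, against 145, 204 and 115 CPM in the knockouts (log2 fold change -0.59, SE 0.17; edgeR adjusted p = 0.16). Tgfbr1 was 215, 188 and 216 CPM in the controls, against 124, 156 and 108 CPM in the knockouts (log2 fold change -0.66, SE 0.12; edgeR adjusted p = 0.0515). Both passed with DESeq2, which called 2.95% of all genes there, at adjusted p-values of 0.0335 and 0.0014. Both passed in edgeR without knockout library 2, at 0.00786 and 0.00817, but with no other single library left out. Over the 6 such fits the edgeR adjusted p reached 0.386 for Itgav and 0.174 for Tgfbr1. Both genes were high in the cluster led by Atp6v0d2, Gpnmb and Mmp12, genes of lipid-laden macrophages, with a pooled 450 CPM of Itgav and 328 CPM of Tgfbr1, and in the small cluster of dividing cells led by Neil3, Diaph3 and Kif15, with 279 and 347 CPM. The Atp6v0d2 cluster made up 32.6, 26.9 and 26.1% of the macrophage-like nuclei of the controls and 8.91, 18.4 and 9.54% of those of the knockouts. In the cluster led by Cd209f, F13a1 and Cd163, Itgav was at a pooled 19.2 CPM and Tgfbr1 at 54.5 CPM. Without the Atp6v0d2 cluster, the log2 fold change of Itgav was -0.15 (edgeR adjusted p = 0.774), and that of Tgfbr1 was -0.52 (edgeR adjusted p = 0.064). Within the Atp6v0d2 cluster Itgav was 417, 501 and 484 CPM in the controls, against 442, 448 and 322 CPM in the knockouts, and Tgfbr1 331, 298 and 394 against 389, 296 and 261 CPM. The groups overlapped for both genes there. Not all clusters did so: in the largest, led by Mrc1, Cd163 and Ms4a4a, Tgfbr1 was 160, 148 and 134 CPM in the controls, against 123, 129 and 91.2 CPM in the knockouts (edgeR adjusted p = 0.725), and in the Lyz1 cluster Itgav was 256, 257 and 313 CPM, against 246, 211 and 218 CPM (edgeR adjusted p = 0.611).

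**Figure D5:**
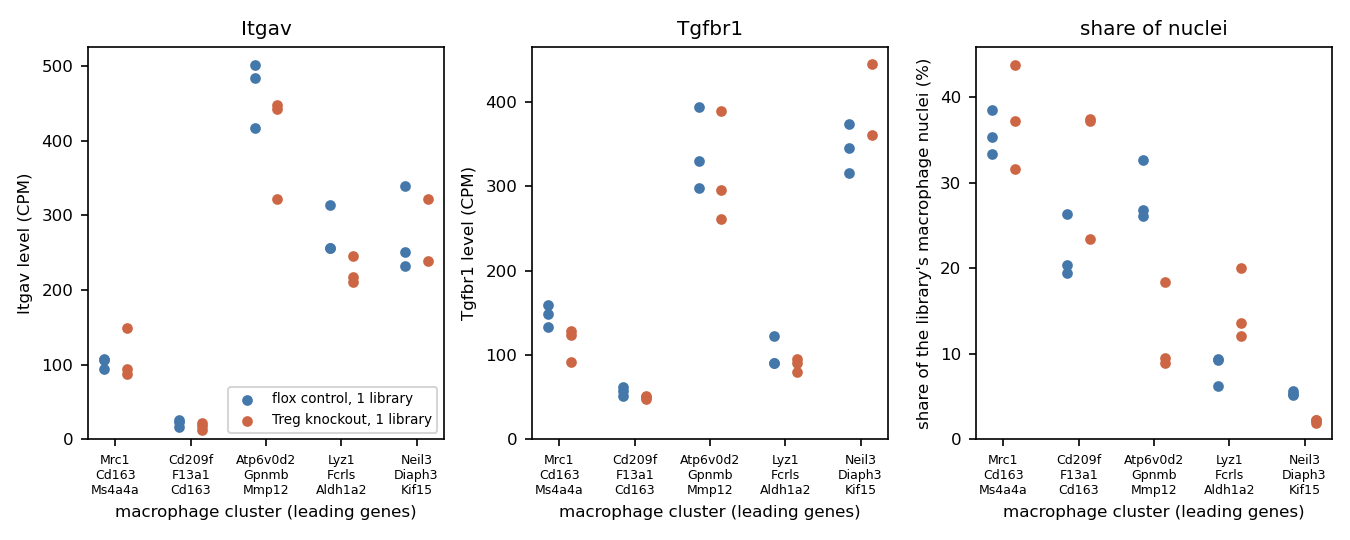
Itgav and Tgfbr1 levels (CPM) in each macrophage-like cluster and the cluster's share of the library's macrophage-like nuclei (%), with 1 point per library (levels only for libraries with at least 20 nuclei of the cluster). The Atp6v0d2, Gpnmb and Mmp12 cluster, with a pooled 450 CPM of Itgav, made up 26.1 to 32.6% of the control nuclei and 8.91 to 18.4% of the knockout nuclei.

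Each receptor had its own order of classes. Tgfbr1 was highest in monocyte-like nuclei (559 ± 99.0 CPM, n = 6), without overlap with the next class. From macrophage-like (168 ± 45.9 CPM) down to B-cell-like nuclei (120 ± 11.0 CPM) each class overlapped its neighbour, and mural-like nuclei were lowest (73.2 ± 15.1 CPM). Tgfbr2, the receptor that binds ligand first, had the order B-cell-like (553 ± 48.9 CPM), T-cell-like (506 ± 73.3), ASPC-like (416 ± 27.0), NK-cell-like (385 ± 71.2) and endothelial-like (373 ± 49.8), each overlapping the next. Adipocyte-like nuclei were lowest, at 38.4 ± 4.37 CPM. The co-receptor Tgfbr3 was highest in ASPC-like nuclei, at 1957 ± 224 CPM, above every library of the next class, endothelial-like nuclei (800 ± 137 CPM), and it was 590 ± 31.0 CPM in adipocyte-like and 35.3 ± 13.3 CPM in B-cell-like nuclei. Adipocyte-like and ASPC-like nuclei together held most of its UMIs, with 48.2 ± 4.34% and 37.3 ± 4.81% in the controls, against 40.5 ± 0.891% and 48.0 ± 2.39% in the knockouts. Adipocyte-like nuclei had the co-receptor and Tgfbr1 (88.0 ± 4.28 CPM), and the lowest Tgfbr2 and Tgfb1 of the 10 classes.

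In T-cell-like nuclei all 3 receptors were higher in every knockout library than in every control library, as were 8.83% of all genes tested there, but none passed the test. The shares of the T-cell-like clusters differed between the groups, as given above, and the part of this in the receptor levels was not tested. Tgfbr1 was 109, 113 and 149 CPM in the controls, against 209, 181 and 177 CPM in the knockouts (log2 fold change 0.59, SE 0.20; edgeR adjusted p = 0.138). Tgfbr2 was 393, 479 and 487 CPM against 545, 613 and 520 CPM (log2 fold change 0.30, SE 0.14; edgeR adjusted p = 0.313). Tgfbr3 was 238, 207 and 264 CPM against 350, 306 and 331 CPM (log2 fold change 0.46, SE 0.16; edgeR adjusted p = 0.136). In endothelial-like nuclei Tgfbr3 was 859, 990 and 877 CPM in the controls, against 744, 730 and 601 CPM in the knockouts. It was lower there without overlap, as were 6.16% of all genes tested (log2 fold change -0.42, SE 0.11; edgeR adjusted p = 0.255). In ASPC-like nuclei it was 1586, 1926 and 1932 CPM against 2090, 1946 and 2264 CPM (log2 fold change 0.20, SE 0.10; edgeR adjusted p = 0.527).

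In the summed tissue Tgfbr2 was 156, 140 and 156 CPM in the controls, against 270, 193 and 237 CPM in the knockouts, without overlap (log2 fold change 0.55, SE 0.13; edgeR adjusted p = 0.0647). Of all genes in the summed tissue, 25.7% were likewise above every control in every knockout. DESeq2 called Tgfbr2 at an adjusted p of 0.00298, as it called 17.6% of all genes there, and edgeR without knockout library 2 called it at 0.0112. Over the 6 fits with a single library left out, the edgeR adjusted p of Tgfbr2 reached 0.199. B-cell-like nuclei held 3.46 ± 3.61% of the Tgfbr2 UMIs in the controls, against 24.3 ± 13.1% in the knockouts. Within B-cell-like nuclei Tgfbr2 was 490, 526 and 534 CPM against 617, 605 and 545 CPM (log2 fold change 0.18, SE 0.12; edgeR adjusted p = 0.722).

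Smad3, which carries the receptor signal to the nucleus, was highest in NK-cell-like nuclei (357 ± 110 CPM, n = 6), followed by monocyte-like (265 ± 36.4) and T-cell-like nuclei (264 ± 60.2), with overlap between neighbours. Within the T-cell-like class it was higher in the Cd163l1 and Il23r cluster, at a pooled 423 CPM. It was 158 ± 23.5 CPM in adipocyte-like nuclei, which held 62.3 ± 8.60% of its UMIs in the controls, against 53.7 ± 4.01% in the knockouts, and lowest in endothelial-like nuclei (59.7 ± 9.82 CPM). In NK-cell-like nuclei it was 566, 341 and 356 CPM in the controls, against 294, 345 and 243 CPM in the knockouts (log2 fold change -0.62, SE 0.20; edgeR adjusted p = 0.0659). In ASPC-like nuclei it was 198, 175 and 249 CPM against 163, 172 and 154 CPM. It was lower there without overlap, as were 8.05% of all genes tested, and did not pass (log2 fold change -0.36, SE 0.12; edgeR adjusted p = 0.312).

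The rest of the pathway was read through 5 lists of 64 other genes: 13 of the latent complex and its activation, 8 related receptors, 9 of SMAD and TAK1 signal transduction, 12 inhibitors and 22 genes known to be induced by TGF-beta. Over all 10 classes, edgeR called 10 of 394 tested pairs of a list gene and a class (2.54%, against 1.54% of all pairs), and 5 of the 10 lay in NK-cell-like nuclei, where 8.04% of all genes were called. The lists were chosen with earlier results of these data known, so these shares are a description only. In adipocyte-like nuclei 1 of the 12 tested genes of the latent complex list fell: Thbs1, which encodes the TGF-beta activator thrombospondin 1, from 163 ± 45.8 to 84.3 ± 9.43 CPM (SD, n = 3 each; log2 fold change -1.02, SE 0.20; edgeR adjusted p = 0.0473). One of the 11 tested inhibitors fell there too: Smurf1, a ubiquitin ligase for SMADs and their receptors, from 216 ± 6.48 to 176 ± 9.92 CPM (log2 fold change -0.36; edgeR adjusted p = 0.0446). The list medians there were -0.10 and -0.09, against 0.01 over all genes tested. Of all genes tested in adipocyte-like nuclei, edgeR called 2.44%. The make-up of this class differed between the groups. The cluster led by Pck1, Nrg4 and Cfd made up 6.4, 9.5 and 20.1% of it in the controls. In the knockouts that cluster made up 36.5, 43.0 and 39.4%. The cluster led by Mageb18 and Ptchd4 made up 36.1, 37.3 and 32.0%, against 22.1, 17.8 and 12.0%. The part of these shifts in the falls of Thbs1 and Smurf1 was not tested.

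In macrophage-like nuclei, where edgeR called 0.559% of all genes, 2 of the 15 tested induced genes rose and 0 fell. Fn1, which encodes the matrix protein fibronectin, was 355, 240 and 309 CPM in the controls, against 587, 540 and 650 CPM in the knockouts (log2 fold change 0.99, SE 0.14; edgeR adjusted p = 0.0307). Tgfbi, which encodes a secreted matrix protein, was 214, 242 and 209 CPM against 363, 332 and 365 CPM (log2 fold change 0.68, SE 0.09; edgeR adjusted p = 0.0257). The other 13 tested did not pass, and the median of the list was -0.44, opposite in sign to these 2 genes, against 0.00 over all genes tested. The make-up of the macrophage-like class differed between the groups, as given above, and its part in these 2 rises was not tested. In T-cell-like nuclei Bmpr1a, a receptor for bone morphogenetic proteins, was the 1 of 4 tested related receptors to pass, falling from 91.2 ± 33.3 to 32.5 ± 5.16 CPM (log2 fold change -1.53, SE 0.32; edgeR adjusted p = 0.00749). Of all genes tested in T-cell-like nuclei, edgeR called 3.11%. The part of the changed make-up of this class in the fall of Bmpr1a was not tested.

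In NK-cell-like nuclei 5 genes passed, beside the shift of NK and T-cell markers given above. The class mixes NK and T cells, and the part of that shift in these results was not tested. Smad7, the inhibitory SMAD that TGF-beta itself induces, was the 1 of 8 tested inhibitors to pass, rising from 124 ± 35.7 to 254 ± 23.8 CPM (log2 fold change 1.01, SE 0.22; edgeR adjusted p = 0.0074). Of 4 tested induced genes, Itgae went from 39.6 ± 25.5 to 147 ± 55.1 CPM (log2 fold change 2.20, SE 0.49; edgeR adjusted p = 0.0163) and Fn1 dropped from 117 ± 76.4 to 43.3 ± 7.37 CPM (log2 fold change -1.60, SE 0.41; edgeR adjusted p = 0.0276). Acvr2a, an activin receptor and the single related receptor tested, dropped from 100 ± 38.7 to 47.2 ± 3.62 CPM (edgeR adjusted p = 0.0125). Tab2, an adaptor of the kinase TAK1, dropped from 391 ± 40.2 to 255 ± 15.7 CPM (edgeR adjusted p = 0.0144), 1 of 6 tested transducers. In the other classes and the whole tissue, edgeR called none of the list genes. In ASPC-like nuclei, the main source of Ltbp1 and Tgfb2, 8 of 60 tested list genes (13.3%) had an unadjusted p under 0.05, near the 10.9% of all genes tested there.

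The genes most like each member in level across the 13 classes were found by Pearson's r of mean log2(CPM + 5), given as a description over 13 classes that share libraries. Tgfb2 was most like Zfp521 (r = 0.954), Nhsl1 (0.953) and Prss23 (0.927), and Ltbp1 most like Igfbp5 (0.943), Pde10a (0.923) and Nhsl1 (0.920). Tgfb1 was most like H2-T24 (0.947), Bcl10 (0.938) and Msn (0.933), and Tgfb3 most like Gm14964 (0.961), B130024G19Rik (0.934) and Slc6a9 (0.930). For Itgb8 they were Cdcp1 (0.935), Dkk3 (0.931) and Ptbp2 (0.916), all highest in epithelial-like nuclei. For the receptors they were Krt80 (0.897), Il27 (0.869) and AC106834.1 (0.861) with Tgfbr1, Casd1 (0.885), Cr1l (0.871) and Ube2v1 (0.864) with Tgfbr2, and Nckap1 (0.898), Zfp462 (0.887) and Casp12 (0.877) with Tgfbr3. Itgav was most like Gm13684 (0.867), Tmem164 (0.842) and Agpat4 (0.841). Smad3 had the weakest matches, Pigb (0.785), Gm20342 (0.785) and Rcbtb2 (0.752).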

How the data were processed

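Nuclei of mouse subcutaneous white adipose tissue were purified over sucrose, DAPI-sorted and made into 6 droplet 3′ libraries, per the labels' protocols. The deposited matrices hold UMI counts per gene and nucleus, made by the authors with Cell Ranger 7.1, per the submitters' processing notes, which name the builds mm10 and GRCh38. Whether intronic reads were counted is not given in the sources used here.

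Barcodes needed at least 500 genes and at most 5% of UMIs from mitochondrial genes, and the highest Scrublet scores were removed at 0.8% per 1000 barcodes, which left 56222 of 65162 barcodes. With scanpy 1.11.5, 3000 variable genes, 40 components and 20 neighbours were clustered by the Leiden method at resolution 1. Clusters were named where at least 3 markers and 50% of 1 of 20 lists stood at least 2-fold above the other clusters. These thresholds were settled after seeing the markers, and 8.10% of nuclei stayed unnamed.

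UMIs were summed per class and library and tested with edgeR 4.0.16 (R 4.3.3; quasi-likelihood, TMM, filterByExpr), with Benjamini-Hochberg adjustment over all genes of a class. For genes under the filter the exact permutation test over libraries (two-sided) cannot go below 0.1, so no p is printed. The labels do not say whether libraries are single mice, so p-values measure the spread between these libraries. The fit was tested on simulated counts. Replicate libraries differed well beyond counting noise (chi-square per degree of freedom 32.0 to 79.2).

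Named were all 10 members, up to 8 called pathway genes per class and the 3 genes most like each member among those with at least 20 CPM in a class. The members and lists were chosen with earlier results of these data known. Alternatives were DESeq2 1.42.0, no TMM, no filter, each library left out, a replicate block, at least 1000 genes, resolution 2, variable genes without the members, doublets kept and thinning to 1000 UMIs. Others were chosen after seeing the data: leaving out Foxp3-positive nuclei or single clusters, adding the low-UMI cluster to the adipocytes, splitting T-cell-like nuclei by Itgb8, and holding the members in the fit.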

Additional observations from a re-analysis of the deposited data

Results flagged for a closer look

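Of the clusters that received no name and entered no comparison, 2 are given for single members with UMIs in the knockout libraries and none in the controls. Members with few knockout UMIs are left out. In the cluster led by Ighg1, Mybl1 and Jchain, which carries markers of both T and B cells and had 11, 1 and 44 control and 58, 17 and 447 knockout nuclei, Itgb8 had 51 UMIs and Tgfb3 had 14, all from knockout libraries. In the cluster led by Pcdh15, Cxcl13 and Robo2, with markers of lymphoid stromal and mural cells, Itgb8 had 22 UMIs, all from knockout libraries. The control nuclei of both clusters are few, so these counts are given as values with no comparison.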

How the results depend on the processing

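Of the alternatives to the counts of members called, 135 of 155 gave the main count. The calls of Itgb8 were kept in every alternative that could test it. In T-cell-like nuclei its log2 fold change ran from 3.11 to 4.66 (edgeR adjusted p 2.24e-07 to 0.0256), and in dendritic-cell-like nuclei from 3.72 to 5.45 (adjusted p 3.15e-12 to 0.0325). With single libraries left out these were 3.11 to 4.61 and 4.12 to 5.45. The low-count filter removed Itgb8 from the T-cell-like fit, and the count of members called there was 0 instead of 1, with at least 1000 genes per nucleus, without Foxp3-positive nuclei, in the largest cluster alone, and without knockout library 1 or 3. Held in these fits, with the filter set aside for the members alone, it passed each time, which is no separate support. DESeq2 gave it an unadjusted p of 0.000272 and no adjusted p. Without single libraries the count ranged from 0 to 1 in T-cell-like, 1 to 2 in NK-cell-like, 1 to 2 in dendritic-cell-like, 0 to 2 in macrophage-like nuclei and 0 to 1 in the whole tissue. Itgav in NK-cell-like nuclei ran from -1.25 to -1.12 without single libraries. With doublets kept it was -0.89 (adjusted p = 0.0648), and 0 members were called there. With at least 1000 genes 2 members were called in NK-cell-like nuclei, with Smad3 added. Without the filter the counts were 1 in ASPC-like (Smad3), 1 in endothelial-like (Tgfbr3), 1 in macrophage-like (Tgfbr1) and 2 in dendritic-cell-like nuclei (Itgav added). Resolution 2 gave 1 in B-cell-like (Tgfbr3) and 1 in macrophage-like nuclei (Tgfbr1), and DESeq2 gave 2 of 8 in macrophage-like nuclei, where it called 2.95% of all genes, and 2 of 10 in the whole tissue (Tgfbr2 and Itgb8), where it called 17.6%. At resolution 2 Smad3 in NK-cell-like nuclei stood at 483 CPM against 357. The cause was not tested. Thinning to 1000 UMIs, which loses UMIs by construction, gave Itgb8 in 2.78% of Foxp3-positive and 2.98% of Foxp3-negative nuclei. In Itgb8-positive and Itgb8-negative nuclei it gave Ctla4 in 37.8% and 8.74%, and Nt5e in 28.9% and 11.7%. Counts of all genes called moved more, from 23 to 285 in T-cell-like (main 181), 132 to 705 in NK-cell-like (411) and 32 to 775 in dendritic-cell-like nuclei (205).

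The labels do not say that replicate numbers pair the libraries, and deviations of same-numbered libraries correlated at -0.006, 0.202 and 0.056 in the whole tissue. With the replicate block as a term, the same number of members was called in every class, while the genes called fell to 112 in T-cell-like and 70 in dendritic-cell-like nuclei and were 420 in NK-cell-like nuclei. Depth limits Itgb8, whose control level rests on 2 UMIs in 338 T-cell-like nuclei and 2 UMIs in dendritic-cell-like nuclei.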
